A study of Rattus norvegicus with 20 samples.

Results

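The 6 libraries described here came from both dorsal root ganglia (DRG) of 3 fish oil-fed rats with chronic constriction injury (CCI), out of 20 DRG libraries in the series. They were chosen by their labels: left (injured side) and right (contralateral) DRG of each FOD-CCI rat from which both sides were sequenced, paired by rat. The rats were female Sprague-Dawley rats, 8 to 10 weeks old by the methods, that ate a fish oil diet (FOD, AIN-93G with its fat replaced by fish oil) for 4 weeks and then had 4 loose chromic gut ligatures tied around the left sciatic nerve. The methods put the DRG collection 1 week after CCI, whereas the labels only state that the diets went on for 4 more weeks after surgery. Both DRG of a rat shared diet, surgery and perfusion, so the contralateral DRG was the uninjured side of an injured animal and not tissue of an uninjured one. A further FOD-CCI left library (replicate 4) had no contralateral partner. Other libraries used here were left DRG of 3 sham-operated rats on the same diet (FOD-CT), and left and right DRG of 3 rats with the same injury on the soy oil diet (SOD-CCI). The level of the ganglia was not given, and the ligatures leave part of the sciatic axons and all axons of other nerves in a ganglion uncut.

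The DRG holds the cell bodies of sensory neurons, wrapped by satellite glial cells, with Schwann cells along their axons, resident macrophages, fibroblasts and vessels. When an axon is damaged, its cell body switches on transcription factors such as Atf3 and Jun, growth-associated proteins and a set of neuropeptides, while many ion channels and receptors of the intact neuron decline. Macrophages gather around the cell bodies, and secreted factors such as Ccl2 and Csf1 act on them and on microglia in the spinal cord. In bulk RNA, fewer cells of a type and less RNA per cell cannot be told apart.

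Both DRG of replicate 1 went against their labels in part. Library totals of the 6 libraries ran from 22547190 to 54437581 counts. In the contralateral library of replicate 1, the summed level of 10 DRG neuron markers was 973 CPM (counts scaled to a TMM-adjusted library total of 1e+06), against 4860 to 15500 CPM in the other 19 libraries of the series. Scn10a, the sodium channel of nociceptors, and the sensory neuron factor Isl1 were listed at 0 there. The same library held 3520 CPM of 9 spinal cord glia markers and 616 CPM of 8 inhibitory neuron markers of the cord, and the left library of that rat held 2440 and 602 CPM. In the 17 libraries other than these and 1 FOD-CT library, which also carried both sets, the sums were at most 101 and 5.37 CPM. The left library of replicate 1 had DRG neuron markers, at 9410 CPM, but Atf3 stood at 3.2 CPM, below the 6.35 CPM of its own contralateral side and below the 13.7 to 42.8 CPM of the sham rats. Contralateral replicate 3 held 8350 CPM of skeletal muscle markers, and left replicate 2 held 21900 CPM of red cell markers. For these reasons the counts of calls and the main genes are given with all 3 rats and without replicate 1. Where no fit is named, a value below is from the fit without replicate 1, and 'passed' refers to edgeR.

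**Figure D1:**
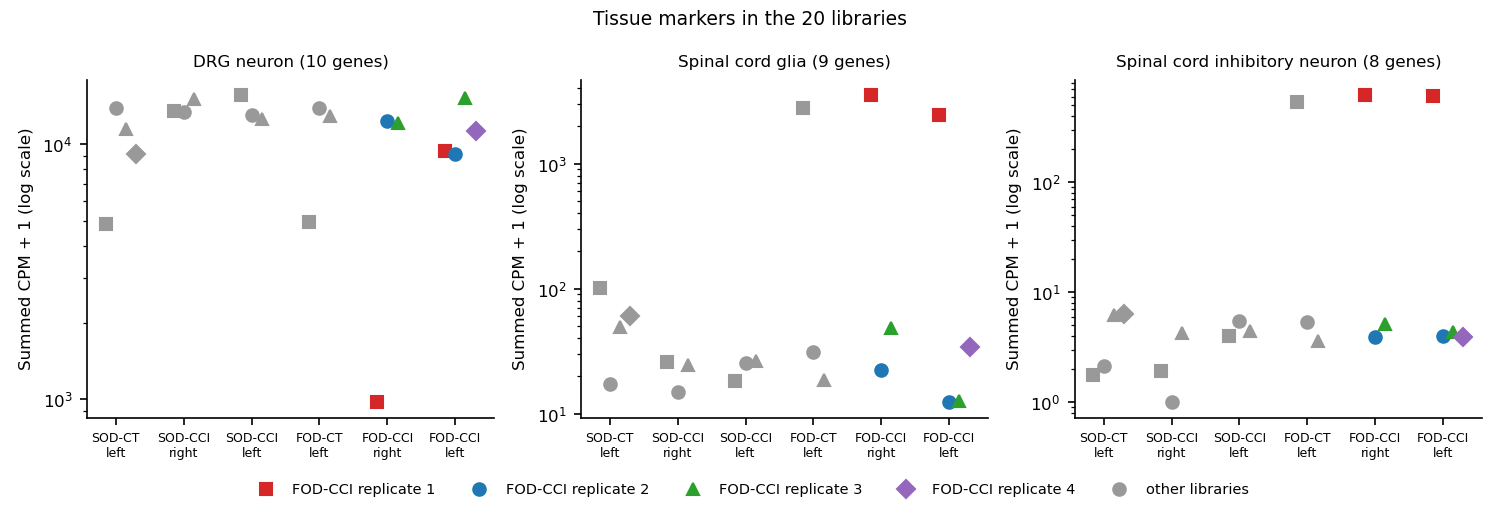
Summed CPM plus 1 (log axis) of 3 marker lists in each of the 20 libraries, by group; coloured points are FOD-CCI libraries, grey points all others, and the point shape is the replicate number. The contralateral library of replicate 1 lies lowest for DRG neuron markers (973 CPM), and both DRG of that rat lie near 600 CPM for spinal cord inhibitory neuron markers, beside 1 FOD-CT library.

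With all 3 rats, 2 of 14549 genes tested passed (0.0137%), both higher on the left. A call required an adjusted p of at most 0.1 (edgeR quasi-likelihood test, Benjamini-Hochberg) and a fold change of at least 1.2, with rat as a block and the SOD-CCI pairs in the same fit. Without replicate 1, 137 of 14992 genes passed (0.914%), of which 90 were higher (0.6%) and 47 lower (0.314%) on the left. Both genes called with 3 rats were among the 137. At an unadjusted p under 0.05, 1012 genes (6.96%) were counted with 3 rats and 1793 (12%) without replicate 1. The biological coefficient of variation was 0.374 with 3 rats and 0.332 without replicate 1. DESeq2, the study's tool, gave 264 calls with 3 rats (1.81%) and 940 without replicate 1 (6.27%), of which 583 were higher (3.89%) and 357 lower (2.38%). Without replicate 1, leaving out a second FOD-CCI rat gave 1022 calls without replicate 2 and 413 without replicate 3, with the spread then taken from the SOD-CCI rats, and leaving out SOD-CCI replicate 1 gave 69. The FOD-CCI libraries fitted alone gave 1 call with 3 rats, which was neither of these 2 genes, and 8 without replicate 1.

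The genes that passed with all 3 rats were Ssc5d, which encodes a soluble scavenger receptor of the cysteine-rich family, and Arg1, which encodes arginase 1, an enzyme that breaks down arginine and is induced in regenerating sensory neurons and in some macrophages. Ssc5d stood at 16.6, 21.3 and 79.5 CPM in left replicates 1, 2 and 3 and at 1.77, 3.86 and 10.6 CPM contralaterally. The left side was higher in each rat and the sides did not overlap. The FOD-CT libraries held 8.59, 16.7 and 11.1 CPM, so left replicate 1 lay within the range of the sham rats. The log2 fold change of Ssc5d was 2.83 ± 0.26 (SE, n = 3 FOD-CCI rats, edgeR adjusted p = 0.0234). Without replicate 1, which leaves FOD-CCI replicates 2 and 3, it was 2.67 ± 0.28 (adjusted p = 0.00778). Each SE here and below rests on a spread shared with the SOD-CCI rats, not on the FOD-CCI rats alone. With the 3 FOD-CCI rats fitted alone, the SE of Ssc5d was 0.34. Arg1 stood at 5.45, 14 and 30.3 CPM on the left and at 0.603, 0.75 and 0.989 CPM contralaterally. Here too the left side was higher in each rat, with no overlap, but left replicate 1 lay within the range of the FOD-CT libraries (7.55, 1.79 and 0.993 CPM). For Arg1 the log2 fold change was 4.10 ± 0.46 (adjusted p = 0.0717) and 4.56 ± 0.44 without replicate 1 (adjusted p = 0.00524). With 3 rats, the call of Arg1 was lost without FOD-CCI replicate 2 or 3 (adjusted p = 0.185 and 0.456) or without any one SOD-CCI rat (0.184 to 0.349), and that of Ssc5d without FOD-CCI replicate 3 (0.456) or SOD-CCI replicate 2 (0.118). Both calls were lost when the FOD-CCI libraries were fitted alone (0.295 for Arg1 and 0.125 for Ssc5d) and without the replicate block (0.119 and 1), and Ssc5d also with left replicate 4 added and no block (0.719).

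The 137 called genes did not move alike in replicate 1, whose libraries were not in that fit. Of the 90 called higher, 56 (62.2%) were higher on the left in replicate 1, against 55.6% of all genes tested. Of the 47 called lower, 39 (83%) were higher on the left in replicate 1, with a median log2 ratio of 0.83. Contralateral replicate 1 is the library with the lowest neuron markers, and the part of that library in these ratios was not tested. In the other direction, left replicate 4, which was in no pair, stood above all 3 FOD-CT libraries for 79 of the 90 called higher (87.8%, against 29.4% of all genes) and below all 3 for 25 of the 47 called lower (53.2%, against 23.6%). Within the fitted pairs, replicate 3 moved further than replicate 2 in 74 of the 90 and in 32 of the 47.

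**Figure D2:**
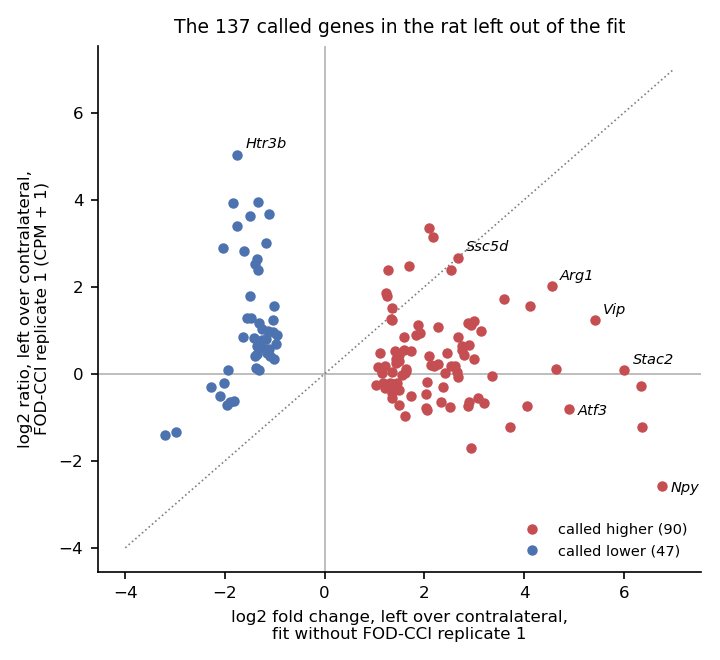
For each of the 137 genes called without replicate 1, the log2 fold change of that fit (x axis) against the log2 ratio of left to contralateral CPM plus 1 in replicate 1 (y axis); the dotted line marks equal values. Red points (90 called higher) spread around 0 on the y axis and most blue points (47 called lower) lie above 0, while Ssc5d and Arg1 were higher and Npy was lower on the left in replicate 1.

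Nearly all neuropeptides and secreted ligands tested rose on the left without replicate 1. Of 12 genes listed, 9 were tested and 8 passed, all higher, beside 0.6% of all genes; the list's median log2 fold change was 2.53, against 0.01 over all genes. Npy, the precursor of neuropeptide Y, which is scarce in intact sensory neurons, stood at 242, 751 and 473 CPM in left replicates 2, 3 and 4. The contralateral DRG of replicates 2 and 3 held 2.18 and 6.81 CPM, and the FOD-CT rats 37.6, 34.6 and 1.45 CPM. In replicate 1 the order was turned, with 5.09 CPM on the left and 35.1 CPM contralaterally. The log2 fold change was 6.77 ± 0.36 without replicate 1 (edgeR adjusted p = 1e-04) and 5.10 ± 2.30 with 3 rats (adjusted p = 0.707).

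Vip, the vasoactive intestinal peptide gene, stood at 1.45, 26.5, 136 and 109 CPM in left replicates 1 to 4 and at 0.0402, 0.863 and 2.33 CPM contralaterally. Left replicates 2 to 4 lay above every contralateral and FOD-CT library, while left replicate 1 lay below contralateral replicate 3. It rose by 5.42 ± 0.36 on the log2 scale without replicate 1 (adjusted p = 0.000447) and was not tested with 3 rats for its low counts. Galanin (Gal), an inhibitory peptide of injured neurons, stood at 8.44, 88.9, 389 and 280 CPM on the left and at 2.17, 13 and 8.27 CPM contralaterally. Every rat had more Gal on the left, although left replicate 1 was below contralateral replicate 2. The change in Gal was 4.13 ± 0.60 on the log2 scale (adjusted p = 0.0292) without replicate 1 and 3.38 ± 0.63 (adjusted p = 0.409) with 3 rats.

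The other members that passed were Adcyap1, Ccl2, Csf1, Bdnf and Cck. Adcyap1, which encodes the peptide PACAP, stood at 96.1 and 226 CPM in left replicates 2 and 3 against 38.5 and 49.5 CPM contralaterally, and rose by 1.74 ± 0.24 (adjusted p = 0.0292); in replicate 1 it was at 18 CPM on the left and 25.8 CPM contralaterally. Ccl2, a chemokine that draws monocytes, was higher on the left in each rat, at 21.7, 231 and 136 CPM against 3.34, 30.3 and 30.3 CPM. Its log2 fold change was 2.53 ± 0.38 without replicate 1 (adjusted p = 0.0358) and 2.57 ± 0.33 with 3 rats (adjusted p = 0.132). Bdnf, the brain-derived neurotrophic factor gene, was likewise higher on the left in each rat, at 11.8, 76.2 and 84.3 CPM against 1.29, 19.4 and 30.7 CPM. For both Ccl2 and Bdnf, left replicate 1 lay below contralateral replicates 2 and 3. Csf1, the growth factor of macrophages and microglia, was at 55.3 and 155 CPM in left replicates 2 and 3 against 18.9 and 25.6 CPM. The log2 fold changes of Bdnf and Csf1 without replicate 1 were 1.69 ± 0.27 and 2.05 ± 0.32, and that of cholecystokinin (Cck) was 3.00 ± 0.58. Cck stood at 9.45 and 35.6 CPM in left replicates 2 and 3 against 1.09 and 4.63 CPM. It stood at 52.8 CPM in left and 41.1 CPM in contralateral replicate 1, and at 46.2 CPM in 1 FOD-CT library. Those libraries carried spinal cord markers, and their part in this gene was not tested. With 3 rats, none of the 7 called members that could be tested passed (adjusted p from 0.132 to 0.707), among them Adcyap1 at 1.00 ± 0.44 (adjusted p = 0.707) and Csf1 at 1.31 ± 0.47 (adjusted p = 0.624); the list's median was 2.11. Nts (neurotensin) was tested and did not pass, with a log2 fold change of 1.34 ± 0.43 (adjusted p = 0.257). DESeq2 without replicate 1 called all 9 members tested, Nts included, all higher, beside 3.89% of all genes.

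**Figure D3:**
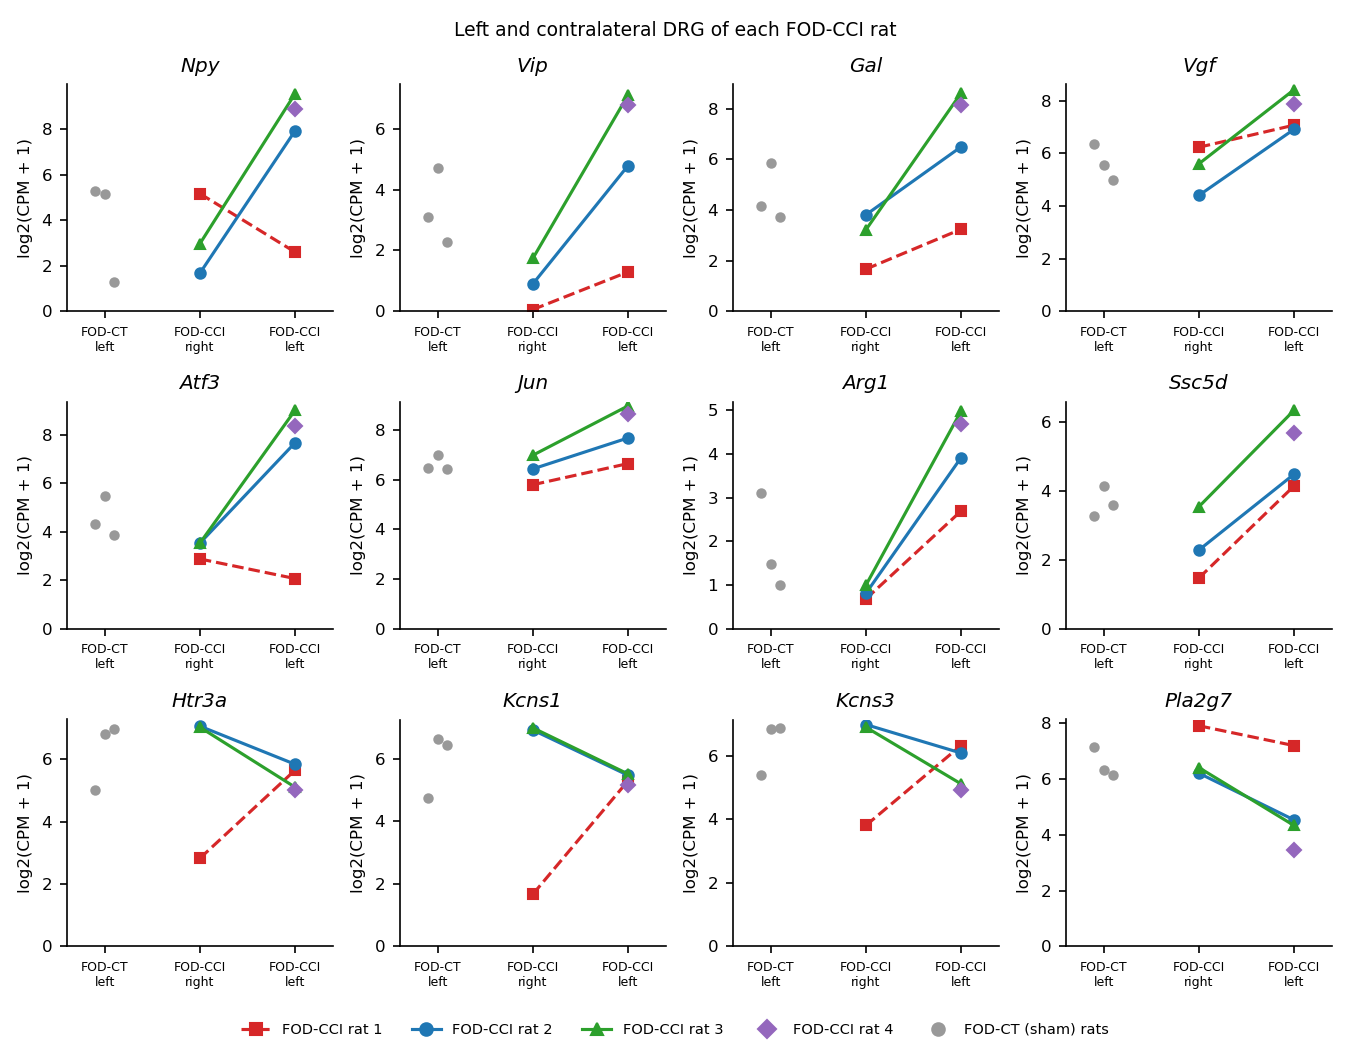
log2(CPM + 1) of 12 genes in FOD-CT left libraries (grey), and in the contralateral and left DRG of each FOD-CCI rat (lines join the sides of a rat; dashed, replicate 1; diamond, the unpaired left replicate 4). Npy and Atf3 are higher on the left in rats 2 and 3 and lower in rat 1, whereas Arg1 and Ssc5d are higher in each rat; Htr3a and Kcns1 are lower on the left in rats 2 and 3 and higher in rat 1.

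Another 4 members could not be tested at the study's filter of at least 10 counts in 90% of libraries: the cytokine genes Il6 and Lif, the secreted lectin gene Reg3b, and Sprr1a of the growth list, a small proline-rich protein that promotes neurite growth. Il6, Reg3b and Sprr1a had 0 counts in the contralateral DRG of replicates 2 and 3. Sprr1a reached 4.32 and 21.2 CPM in left replicates 2 and 3, at least 38.4-fold and 179-fold higher than the level of 3 counts in the contralateral library of the same rat. By the same measure Reg3b was at least 170-fold and 95.1-fold higher, and Il6 at least 38.7-fold and 60.7-fold higher. In replicate 1 all of these were at 0 on both sides except for 0.509 CPM of Reg3b on the left. With a filter of 10 counts in at least 3 libraries (206 of 19385 genes called, 1.06%), all of them passed except Lif, which had no counts in replicates 1 to 3. In the FOD-CCI pairs of that fit, Il6, Reg3b and Sprr1a reached the filter only through the left libraries. No conclusion is drawn from these calls.

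Among transcription factors of injured neurons, 3 of 11 entries tested passed, all higher, beside 0.6% of all genes, and the list's median log2 fold change was 1.23 without replicate 1. Of the 3, 2 were Atf3, since the count table lists a second entry under its gene ID. Atf3, a stress-induced factor widely used to mark axotomised neurons, stood at 201 and 509 CPM in left replicates 2 and 3, against 10.5 and 10.5 CPM contralaterally. Left replicate 4 was at 330 CPM, so these 3 libraries lay well clear of all contralateral and FOD-CT libraries. Its log2 fold change was 4.91 ± 0.47 without replicate 1 (adjusted p = 0.00524) and 3.43 ± 1.29 with 3 rats (adjusted p = 0.634). The second entry changed by 6.37 ± 1.01 (adjusted p = 0.0371).

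Jun, a partner of Atf3 in the AP-1 family, was higher on the left in each rat, at 98.9, 203 and 497 CPM against 54.4, 85.1 and 125 CPM. The sides overlapped between rats but not within one, and the log2 fold change was 1.60 ± 0.25 without replicate 1 (adjusted p = 0.0371) and 1.34 ± 0.25 with 3 rats (adjusted p = 0.409). Sox11, a developmental factor re-expressed after axotomy, was at 4.46 CPM in left replicate 2 and 46.2 CPM in left replicate 3, and did not pass (1.65 ± 0.67, adjusted p = 0.371). DESeq2 without replicate 1 called 7 of the 11 entries, all higher and Sox11 among them, beside 3.89% of all genes.

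Of 17 axon growth genes tested, 9 passed without replicate 1, all higher, beside 0.6% of all genes, and the list's median was 1.60. With 3 rats Arg1 was the member that passed, the adjusted p of these 9 ran up to 0.623 and the median was 1.49. Besides Arg1, these were Flrt3, Gadd45a, Stmn4, Gfra1, Gap43, Cacna2d1, Ecel1 and Tubb2b. Gap43, the growth cone protein, stood at 444 and 1070 CPM in left replicates 2 and 3 and at 229 and 181 CPM contralaterally. Cacna2d1, the calcium channel subunit bound by gabapentin, stood at 77.5 and 307 CPM against 37 and 46.4 CPM. Both were lower in left replicate 2 than in left replicate 3, and their log2 fold changes were 1.73 ± 0.34 and 1.88 ± 0.37 (adjusted p = 0.078 for each). The other log2 fold changes ran from 1.24 ± 0.26 for the tubulin gene Tubb2b to 2.68 ± 0.41 for the microtubule regulator Stmn4. Stmn4 stood at 60.5 and 193 CPM in left replicates 2 and 3 against 19 and 14.6 CPM. It stood at 145 CPM in left and 153 CPM in contralateral replicate 1, and at 124 CPM in 1 FOD-CT library. Ecel1 stood at 44.3, 31.4 and 44 CPM in the same libraries. Those libraries carried spinal cord markers, and their part in these 2 genes was not tested. Gfra1, the co-receptor for glial cell line-derived neurotrophic factor, rose by 1.60 ± 0.28. DESeq2 without replicate 1 called 11 of the 17 growth genes, all higher, beside 3.89% of all genes. In replicate 1 the median log2 ratio of this list was 1.13, beside 0.95 and 2.19 in replicates 2 and 3. The transcription factor list stood at -0.81 in replicate 1 beside 0.65 and 1.12. The DRG neuron markers had a median of 3.57 in replicate 1, whose contralateral library was low in them. The part of that library in the ratios of these lists was not tested.

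Jun and Atf3 belong to families that bind the AP-1 site (TGANTCA) and the related cyclic AMP response element (TGACGTCA). Both sequences were searched on both strands in the 250 bases upstream of the transcription start in RefSeq promoters of rat build GRCr8. Promoters were found by gene ID for 61 of the 90 genes called higher, of which 3 held TGANTCA (4.92%) and 2 held TGACGTCA (3.28%), against 4.46% and 2.83% of the 11142 promoters of all genes tested. Of 35 promoters of genes called lower, 3 and 2 held them (8.57% and 5.71%). The 3 genes shown were picked among those higher on the left because they carry either sequence, to show how the sites lie in a promoter; capitals mark the match, and each run covers 150 bases, from 200 to 51 bases before the start.

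Vgf (chr12:25277071-25277220, minus strand): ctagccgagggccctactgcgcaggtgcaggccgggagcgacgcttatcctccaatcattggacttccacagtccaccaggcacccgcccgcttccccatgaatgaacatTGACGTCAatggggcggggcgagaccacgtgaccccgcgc
Sprr1a (chr2:180752676-180752825, minus strand): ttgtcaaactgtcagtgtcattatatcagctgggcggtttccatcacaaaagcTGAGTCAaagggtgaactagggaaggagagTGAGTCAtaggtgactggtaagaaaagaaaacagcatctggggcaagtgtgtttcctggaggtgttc
Il6 (chr4:5894626-5894775, minus strand): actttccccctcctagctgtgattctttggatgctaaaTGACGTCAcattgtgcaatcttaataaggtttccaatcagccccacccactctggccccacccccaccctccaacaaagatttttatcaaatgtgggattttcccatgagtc

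Vgf, whose product is cut into several secreted peptides, held TGACGTCA at positions -90 to -83, Il6 held it at -162 to -155, and Sprr1a held TGAGTCA at -147 to -141 and at -117 to -111. Vgf stood at 133, 119, 339 and 231 CPM in left replicates 1 to 4 and at 73.9, 20.1 and 47.4 CPM contralaterally. All left libraries were above all contralateral ones, and above the FOD-CT libraries at 81.6, 45.9 and 30.4 CPM. The log2 fold change was 2.68 ± 0.21 without replicate 1 (adjusted p = 0.00148) and 2.07 ± 0.37 with 3 rats (adjusted p = 0.366).

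The remaining genes among the 15 with the smallest p on the higher side had mixed roles. With 3 rats, 14 of the 15 could be tested, each with a positive value, and 2 passed (Ssc5d and Arg1). Replicates 2 and 3, from which the 15 were picked, are also in that fit, so the shared sign follows in part from the choice. Stac2, which encodes an adaptor of voltage-gated calcium channels, stood at 16.9 and 126 CPM in left replicates 2 and 3 against 0.638 and 0.91 CPM, and rose by 6.01 ± 0.62 (adjusted p = 0.00737). In replicate 1 it was at 56.7 and 53.1 CPM, and in 1 of the FOD-CT libraries at 50.4 CPM; both libraries of that rat and that sham library carried spinal cord markers, and their part in this gene was not tested. Tslp, a cytokine that signals to immune cells and sensory neurons, stood at 13.1 and 40 CPM on the left against 0.975 and 1.9 CPM, and rose by 4.06 ± 0.45 (adjusted p = 0.0103). Fam150b, a ligand of the receptor kinases Alk and Ltk, stood at 2.33, 13.4 and 15.9 CPM against 0, 0.788 and 1.74 CPM, with the left higher in each rat. Its log2 fold change was 3.59 ± 0.44 (adjusted p = 0.0149), beside 2.10 ± 0.26 for Serpina1, the protease inhibitor alpha-1 antitrypsin. Gabra5, a subunit of extrasynaptic GABA-A receptors, rose by 2.27 ± 0.31 from 8.1 and 13.5 CPM to 37.9 and 69.1 CPM. Lcp1, the actin-bundling plastin of leukocytes, rose by 1.84 ± 0.25, the mitotic kinesin Kif22 by 2.80 ± 0.36, Slc7a6os by 1.64 ± 0.23 and LOC108352323 by 6.35 ± 0.75.

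**Figure D4:**
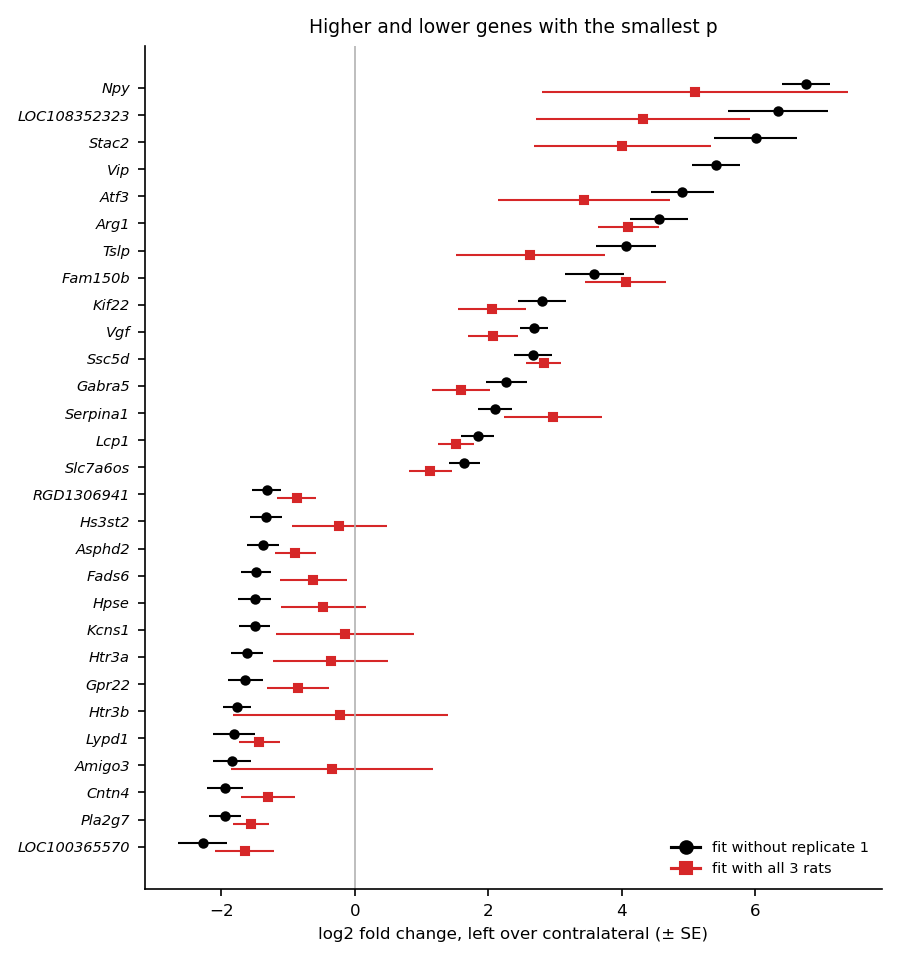
log2 fold change (left over contralateral, ± SE) of the 15 higher and 14 of the 15 lower genes with the smallest p in the fit without replicate 1 (black), with the fit of all 3 rats in red where the gene was tested. The red bars are wide for Npy (SE 2.30) and Htr3b (SE 1.61) and short for Ssc5d (SE 0.26).

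On the lower side, the 15 genes with the smallest p without replicate 1 included receptor, channel, lipid and glycan genes. With 3 rats each of the 15 had a negative value and none passed (adjusted p from 0.366 to 0.983). Replicates 2 and 3, from which the 15 were picked, are also in that fit, so the shared sign follows in part from the choice. Htr3a and Htr3b, which form the serotonin-gated 5-HT3 channel, fell together. Htr3b stood at 36.5, 24.6 and 36.9 CPM in left replicates 2, 3 and 4, against 108 and 92.9 CPM contralaterally. Htr3a stood at 56.4, 33.5 and 31.4 CPM against 133 and 130 CPM. The sides did not overlap among these libraries, but in replicate 1 Htr3b was at 31.9 CPM on the left and listed at 0 contralaterally. The log2 fold changes were -1.76 ± 0.21 for Htr3b (adjusted p = 0.0149) and -1.62 ± 0.24 for Htr3a (adjusted p = 0.0358) without replicate 1. With 3 rats they were -0.22 ± 1.61 and -0.36 ± 0.86 (adjusted p = 0.983 and 0.947).

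Of 15 potassium channel entries tested, 2 passed, both lower, beside 0.314% of all genes, and the list's median was -0.84; DESeq2 called 7, all lower. The DRG neuron markers had a median of -0.63 in the same fit, and their part in the list's values was not tested. Kcns1, a modifier subunit of Kv2 channels, stood at 43.4 and 44.7 CPM on the left against 120 and 126 CPM, and changed by -1.50 ± 0.23 (adjusted p = 0.0364). Its relative Kcns3 changed by -1.39 ± 0.26 (adjusted p = 0.0772). In replicate 1 both were higher on the left, Kcns1 at 38.1 against 2.17 CPM and Kcns3 at 79.3 against 13 CPM, and with 3 rats their values were -0.15 ± 1.03 and -0.23 ± 0.74 (adjusted p = 0.983 and 0.962). With 3 rats the list's median was -0.27. Kcnv1, which is also a silent Kv subunit but on no list and picked after its values were seen, changed by -1.55 ± 0.28 (adjusted p = 0.0667).

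Other genes among the 15 lower ones act on lipids, glycans and adhesion. Pla2g7, the lipoprotein-associated phospholipase A2 that cleaves platelet-activating factor and oxidised phospholipids, stood at 22.2, 19.2 and 9.84 CPM in left replicates 2 to 4 against 73.1 and 84.2 CPM. It was lower on the left in replicate 1 as well, at 146 against 240 CPM, and its log2 fold change was -1.95 ± 0.24 without replicate 1 (adjusted p = 0.0149) and -1.56 ± 0.27 with 3 rats (adjusted p = 0.366). Fads6, of the fatty acid desaturase family, stood at 18.3 and 17.1 CPM against 51.2 and 46.1 CPM, and changed by -1.48 ± 0.22 (adjusted p = 0.0358); in replicate 1 it was at 52.8 CPM on the left and 21.1 CPM contralaterally. The heparan sulfate genes Hpse (heparanase) and Hs3st2 (a sulfotransferase) changed by -1.50 ± 0.25 and -1.33 ± 0.24, and the adhesion genes Cntn4 and Amigo3 by -1.94 ± 0.27 and -1.84 ± 0.28. The remaining members, Gpr22, LOC100365570, RGD1306941, Asphd2 and Lypd1, changed by between -2.28 ± 0.37 and -1.32 ± 0.22.

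Some genes called lower did not stay low in the unpaired left library. Igf2, Igfbp6, Vtn, Gjb2 and Scara3, picked after their values were seen, encode growth factor, matrix and gap junction proteins. Igf2 stood at 20.3 and 25.6 CPM in left replicates 2 and 3 against 64.9 and 128 CPM contralaterally, but at 185 CPM in left replicate 4 and at 46.5 to 245 CPM in the FOD-CT libraries. Igfbp6 stood at 69.2 and 61.1 CPM against 157 and 358 CPM, and at 331 CPM in left replicate 4. Levels of fibroblast and matrix markers are set beside these genes. Their summed level was 8290 CPM in left replicate 4, the highest of the 20 libraries. It was 4030 to 5050 CPM in left replicates 2 and 3 and 4730 to 5240 CPM in their contralateral DRG. In replicate 2 the sum was higher on the left, at 5050 against 4730 CPM. The FOD-CT library with 245 CPM of Igf2 had a sum of 3620 CPM. Sparc, a member of that list, averaged 2320 CPM in left replicates 1 to 3 and 2380 CPM contralaterally. The list's median was -0.16 in FOD-CCI, with 7 of 11 members lower and 4 higher, and 0.76 in SOD-CCI. Dcn, a member picked after its values were seen, stood at 819 and 413 CPM in left replicates 2 and 3. Its contralateral values there were 839 and 1080 CPM, and left replicate 4 held 1470 CPM. The part of these markers in the values of the 5 genes was not tested. For these 5 genes the change differed in sign in the SOD-CCI rats, where the log2 fold change ran from 0.71 to 1.85, and the adjusted p of the difference between diets was 0.43 for each.

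Values of genes that define nociceptors differed between the fits with and without replicate 1. Without replicate 1, 12 of 15 nociceptor channel and receptor genes had a negative value, 1 passed (Htr3a, lower) and the median was -0.62; with 3 rats none passed and the median was 0.84. DESeq2 without replicate 1 called Htr3a, Gfra2 and Scn10a lower. Scn10a stood at 67.6, 165 and 130 CPM in left replicates 1 to 3 and at 0, 231 and 259 CPM contralaterally. Its log2 fold change was -0.76 ± 0.24 without replicate 1 (adjusted p = 0.263) and 0.79 ± 1.60 with 3 rats (adjusted p = 0.938). Piezo2, the touch channel, had values of -0.37 ± 0.25 and 0.54 ± 0.56, and Trpa1, the irritant receptor, of -0.09 ± 0.23 and 1.08 ± 0.81, in the same order. Oprm1, the mu opioid receptor gene, was tested only without replicate 1 (-1.75 ± 0.74, adjusted p = 0.391), at 0.704 and 1.38 CPM on the left and 4.2 and 2.61 CPM contralaterally. Of 6 constitutive nociceptor peptide genes none passed, 1 had an unadjusted p under 0.05, and the median was -0.25 (0.97 with 3 rats). DESeq2 called 1, Nmb, the neuromedin B gene, lower (-1.56, DESeq2 adjusted p = 0.00129). Calca, the gene of calcitonin gene-related peptide, stood at 1410 and 624 CPM on the left and 1070 and 884 CPM contralaterally (-0.07 ± 0.27, adjusted p = 0.941). The 10 DRG neuron markers had a median of -0.63 without replicate 1, and 7 of them had a negative value.

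**Figure D5:**
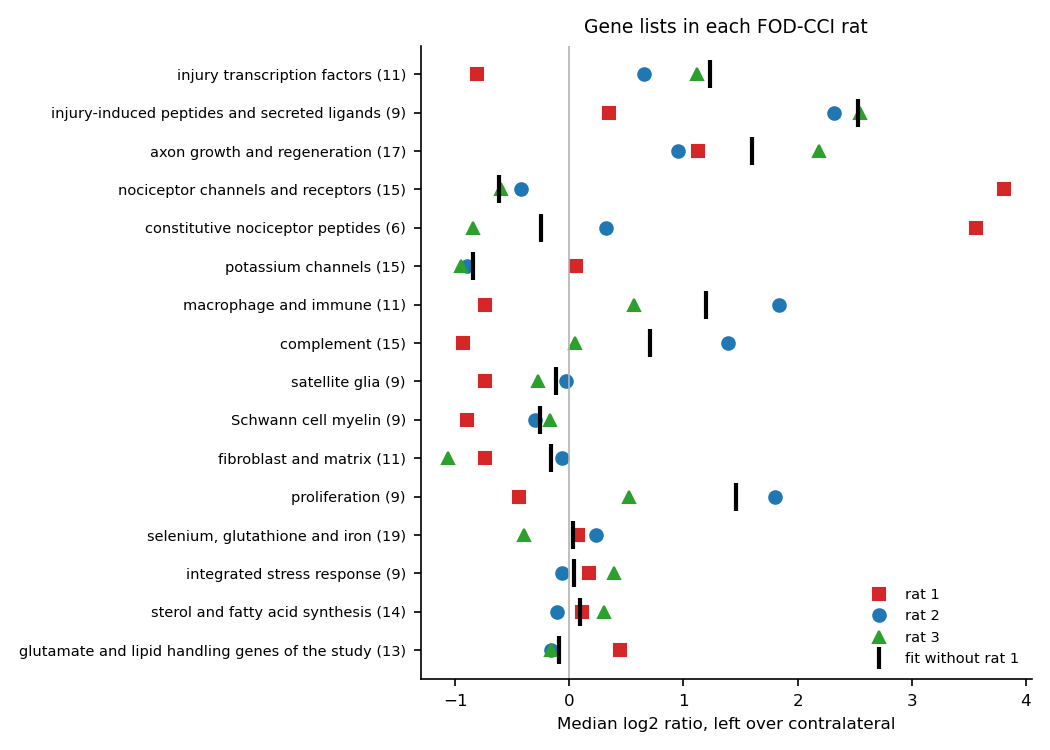
Median log2 ratio of left to contralateral CPM plus 1 over each gene list in rats 1, 2 and 3 (coloured points; number of genes tested in brackets), with the median log2 fold change of the fit without rat 1, which adds no such count, as a black bar. Peptides and growth genes lie above 0 in each rat, nociceptor channels lie at 3.81 in rat 1 and below 0 in rats 2 and 3, and macrophage, complement and proliferation genes lie highest in rat 2. The ratios of rat 1 divide by a contralateral library that was low in DRG neuron markers.

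Macrophage and immune genes had positive values without replicate 1 in 11 of 11 tested, with a median of 1.2 (0.50 with 3 rats). None passed in edgeR, where 5 had an unadjusted p under 0.05, whereas DESeq2 called 5, all higher: Lyz2, Aif1, Cd74, RT1-Da and Tyrobp. Aif1, a macrophage actin-binding protein, stood at 33.4 and 29.5 CPM in left replicates 2 and 3 against 10.4 and 14.4 CPM (1.34 ± 0.33, adjusted p = 0.162). Lyz2, lysozyme, stood at 1520 and 693 CPM against 284 and 414 CPM (1.56 ± 0.37, adjusted p = 0.153), and passed with the filter of 10 counts in 3 libraries (adjusted p = 0.0981). Summed over the list, left replicates 2 and 3 held 1470 to 2160 CPM and their contralateral DRG 505 to 891 CPM, whereas replicate 1 held 176 CPM on the left and 402 CPM contralaterally. The median ratio was larger in replicate 2 (1.84) than in replicate 3 (0.57).

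Complement genes had a median of 0.71 with 11 of 15 positive (-0.02 with 3 rats). None passed in edgeR, where 5 had an unadjusted p under 0.05, and DESeq2 called 4, all higher: C3, C1qa, C1qb and C4a. C3, the central complement component, stood at 37.6, 85 and 32.6 CPM on the left and at 50.4, 13.8 and 18.6 CPM contralaterally, with a log2 fold change of 1.69 ± 0.48 without replicate 1 (adjusted p = 0.215). Proliferation genes had positive values in 9 of 9, with a median of 1.46 (0.64 with 3 rats). None passed in edgeR, where 5 had an unadjusted p under 0.05, and DESeq2 called 2, the division markers Mki67 and Top2a, both higher. Mki67 stood at 67.4 CPM in left replicate 2, against 6.41 CPM contralaterally, and at 5.74 and 2.89 CPM in replicate 3. Left replicate 2 was also the library with 21900 CPM of red cell markers, and the part of blood in these values was not tested.

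Few genes of glia and fibroblasts passed. Of 9 satellite glia genes none passed in edgeR, where 2 had an unadjusted p under 0.05 (median -0.12). Gfap, the intermediate filament of reactive glia, stood at 65.4 and 65.9 CPM in left replicates 2 and 3 against 20.3 and 12.1 CPM (2.04 ± 0.47, adjusted p = 0.14); it passed with the filter of 10 counts in 3 libraries (adjusted p = 0.0912) and with DESeq2, which also called Slc1a3, the glial glutamate transporter, lower. In replicate 1 Gfap was at 313 and 875 CPM, beside the spinal cord glia markers of those libraries. Schwann cell myelin genes had a median of -0.26, and none passed in edgeR or DESeq2 or had an unadjusted edgeR p under 0.05. Of 11 fibroblast and matrix genes 1 passed, Timp1, an inhibitor of matrix proteases, at 123 and 142 CPM against 60.3 and 59.9 CPM (1.12 ± 0.21, adjusted p = 0.078).

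Genes tied to the study's question of lipid peroxidation and redox defence gave list medians near that of all genes. Of 19 selenium, glutathione and iron genes none passed in edgeR without replicate 1, where 4 had an unadjusted p under 0.05, and DESeq2 called 1, Acsl4; the median was 0.03 in both edgeR fits. Gpx4, which reduces phospholipid hydroperoxides, stood at 859, 1290 and 687 CPM on the left and at 508, 1210 and 1480 CPM contralaterally. The left side was higher in replicates 1 and 2 and lower in replicate 3, and the log2 fold change was -0.52 ± 0.32 without replicate 1 (adjusted p = 0.55). Gpx1, the cytosolic glutathione peroxidase, stood at 100, 372 and 111 CPM against 112, 132 and 184 CPM (0.36 ± 0.45, adjusted p = 0.79). Acsl4, which loads long polyunsaturated fatty acids into phospholipid synthesis, stood at 125 and 176 CPM in left replicates 2 and 3 against 76.5 and 46.8 CPM (1.29 ± 0.28, adjusted p = 0.11), and passed with the filter of 10 counts in 3 libraries (adjusted p = 0.0912). None of 14 sterol and fatty acid synthesis genes (median 0.09) and none of 9 integrated stress response genes (median 0.04) passed in edgeR or DESeq2, with 0 and 2 at an unadjusted edgeR p under 0.05. Of 13 glutamate and lipid handling genes that the study names none passed in edgeR (median -0.09, 2 at an unadjusted p under 0.05), and DESeq2 called 1, Slc17a7, the vesicular glutamate transporter 1, lower (-0.80, DESeq2 adjusted p = 0.0158). Hba2, a haemoglobin gene, stood at 115, 4190 and 395 CPM against 964, 296 and 540 CPM, and Hmgn1, a nucleosome-binding protein gene, had a value of -0.04 ± 0.28; neither passed.

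The SOD-CCI pairs shared the fit, so their values are set beside those of the FOD-CCI pairs. Without replicate 1, 89 of the 90 genes called higher had a positive value in the SOD-CCI rats and 41 of the 47 called lower a negative one, beside 52.2% of all genes with a positive value. Npy changed by 7.58 ± 0.30 on the log2 scale in SOD-CCI and by 6.77 ± 0.36 in FOD-CCI, Atf3 by 4.96 ± 0.38 and 4.91 ± 0.47, and Ssc5d by 1.91 ± 0.22 and 2.67 ± 0.28. The difference between diets in the left minus contralateral change passed for 0 of 14549 genes with 3 rats and for 0 of 14992 without replicate 1 (edgeR). At an unadjusted p under 0.05, 424 (2.91%) and 498 genes (3.32%) were counted. DESeq2, run for this difference only with 3 rats, called 60, 57 of them with the lower value in FOD-CCI. That fit includes replicate 1, whose left DRG held 3.2 CPM of Atf3 and whose libraries carried spinal cord markers. The part of replicate 1 in these calls was not tested.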

How the data were processed

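Gene counts per library were deposited by the authors, whose notes name fastp for trimming, HISAT2 for alignment and featureCounts 1.5.0-p3 for counting; the genome build, strand setting and treatment of multi-mapping reads are not given in the sources used here. The deposited FPKM values were not used. Poly(A) libraries were read at 22547190 to 54437581 counts, so that depth limits only genes with few counts; a count of 0 was set to 3 counts in a bound. Counts were tested here with edgeR 4.0.16 (quasi-likelihood, TMM) in R 4.3.3 over the 12 libraries of the 6 CCI rats with both sides, with rat as a block, keeping genes that reached 10 counts in 90% of the libraries. Calls used the study's thresholds, an adjusted p of at most 0.1 (Benjamini-Hochberg over all genes tested) and a fold of at least 1.2. The fit was repeated without both DRG of FOD-CCI replicate 1 (10 libraries). CPM values were scaled by TMM factors over all libraries, and ratios within a rat used CPM plus 1. The script was tested on simulated counts. Both DRG of a number came from the same rat, and deviations from the group means correlated within rats (0.17 to 0.50). DESeq2 1.42.0 and limma 3.58.1 (voom) were alternatives, with other filters, size factors, no block and libraries left out. Named genes were those called with 3 rats, the 15 smallest p in each direction without replicate 1, members of the gene lists that were called, had the smallest p or were too low to test, and genes the study names; any other gene is said to have been picked after its values were seen. The result for a gene among the lower 15 is not reported here. Members and lists were chosen with earlier results of these data known. Motifs were searched in RefSeq promoters (GRCr8) matched by gene ID.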

Additional observations from a re-analysis of the deposited data

Results flagged for a closer look

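Single libraries stood apart from the others among the 4 FOD-CCI left libraries for several named genes and marker sums; in groups of 4, about 1 in 20 is set apart by chance. Left replicate 1 held more Pla2g7 (146 CPM), Cntn4 (25.3 CPM) and Hpse (15.2 CPM) and less Bdnf (11.8 CPM) than the other left libraries. The same library stood out for spinal cord glia markers (2440 CPM) and spinal cord inhibitory neuron markers (602 CPM). Left replicate 2 stood out for C3 (85 CPM), Hba2 (4190 CPM), Hmgn1 (113 CPM) and the summed levels of skeletal muscle (187 CPM), red cell (21900 CPM) and proliferation genes (309 CPM), and left replicate 3 was low in satellite glia genes (4610 CPM). LOC100365570 was lower on the left in every FOD-CCI rat and higher in every SOD-CCI rat, a difference in mean log2 ratio of -2.05, which did not pass in the fit (adjusted p = 0.43 without replicate 1).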

How the results depend on the processing

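With all 3 rats, the 2 calls became 0 without the replicate block, 1 with the FOD-CCI libraries alone (neither of the 2), 1 with left replicate 4 added and no block (Arg1), 10 with the filter of 10 counts in 3 libraries, 61 with no filter, 95 with limma voom and sample weights and 264 with DESeq2; leaving out 1 rat at a time gave 0 to 137, where 137 is the fit without FOD-CCI replicate 1 and 0 those without FOD-CCI replicate 3 or SOD-CCI replicate 2. The 137 calls without replicate 1 became 84 without the replicate block (74 of them shared), 8 with the FOD-CCI libraries alone, 343 with left replicate 4 added and no block (117 shared), 206 with the filter in 3 libraries, 605 with no filter and 940 with DESeq2; leaving out a further rat gave 69 to 1022. With DESeq2 size factors in edgeR the counts were 2 and 128, and voom gave 131. The rise in calls when FOD-CCI replicate 2 or 3 was also left out comes from a fit with a single FOD-CCI pair, whose spread is assumed to be that of the SOD-CCI rats. DESeq2 called 60 differences between diets with 3 rats, an alternative chosen after seeing the data and not run without replicate 1. Why the tools differ was not tested.

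Among named genes, Npy, Vip, Vgf, Stac2, Tslp, LOC108352323 and both entries of Atf3 passed in every alternative without replicate 1 in which they were tested. Signs turned for genes that were not called. With 3 rats, Scn10a went from 0.79 to -0.46 without the replicate block, -0.47 with left replicate 4 and -0.74 with voom (rats left out in turn, -0.76 to 3.23), Piezo2 from 0.54 to -0.10, -0.06 and -0.03 (-0.37 to 1.14), and Hba2 from -0.18 to 1.39, 1.07 and 0.31 (-1.81 to 1.67). Leaving out rats moved Trpa1 from -0.09 to 2.07, Gpx1 from -0.50 to 0.65 and Gpx4 from -0.52 to 0.42. Without replicate 1, it moved Hba2 from -0.52 to 3.85, Gpx1 from -0.80 to 1.52, Gpx4 from -1.17 to 0.12, Trpa1 from -0.22 to 0.04 and Hmgn1 from -0.56 to 0.48 (0.01 with no filter). In the fit without replicate 1 Hba2 turned without replicate 2, which held the red cell transcripts, as did Gpx1, and Gpx4, Hmgn1 and Trpa1 turned without replicate 3. The cause was not tested.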

Other observations

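Further genes called without replicate 1, picked after their values were seen, belonged to cytokine signalling, growth arrest and transmitter synthesis. Socs3, a feedback inhibitor of cytokine receptors, stood at 7.37 and 24.1 CPM in left replicates 2 and 3 against 2.36 and 3.8 CPM contralaterally (log2 fold change 2.14 ± 0.41, edgeR adjusted p = 0.078), and Il4r, the interleukin 4 receptor, at 29.9 and 71.8 CPM against 11.9 and 6.53 CPM (2.37 ± 0.46). The growth arrest genes Gadd45g and Cdkn1a rose by 2.75 ± 0.43 and 1.46 ± 0.29. Tspo, a mitochondrial membrane protein used to image activated macrophages and glia, stood at 77.9 and 68.7 CPM against 24 and 22.2 CPM (1.64 ± 0.29, adjusted p = 0.0603), and at 88.2 CPM in left replicate 4 against 21.9 to 25.4 CPM in the FOD-CT rats. Tph2, the neuronal enzyme that starts serotonin synthesis, stood at 56.7 and 111 CPM against 26.7 and 11.2 CPM (2.17 ± 0.46, adjusted p = 0.0993). On the lower side, receptors outside the lists included the nicotinic subunit gene Chrnb3 (-1.32 ± 0.26), the purinergic channel gene P2rx6 (-1.25 ± 0.25) and the adrenergic receptor gene Adra2c (-1.14 ± 0.23).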
